A study of Mus musculus with 18 samples.

Results

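The genes described here were 46 genes of the cell division cycle, taken by symbol from the 23238 gene symbols of the count tables. Of these, 20 act in DNA replication, 24 act in mitosis, and 2 (Hmgb2, a chromatin protein, and Stmn1, a microtubule-destabilising protein) belong to neither group but are abundant in dividing cells. All 46 were found, each on a single row. RNA was measured in 18 libraries of sorted cells from the intestine of adult C57BL/6J mice, as 3′ end read counts. The sorted populations were stromal cells positive for PDGFRb (IntSCs) and lymphatic endothelial cells (LECs). In the intestine LECs line the lymphatic vessels, among them the lacteal, the lymphatic capillary inside each villus. According to the genotype labels, every mouse carried the CreERT2 recombinase driven by Pdgfrb and a Tomato reporter. The KO mice additionally carried Lats1f/f Lats2 f/f, so that tamoxifen was meant to delete both Hippo pathway kinases in PDGFRb+ cells. The WT mice carried the driver and the reporter without the floxed alleles. The paper injected tamoxifen to induce Cre in its CreERT2 mice, and sorted Tomato-positive stromal cells from both genotypes. There were 6 WT and 5 KO libraries of IntSCs, and 4 WT and 3 KO libraries of LECs. Because the driver acts in stromal cells, the KO LECs came from mice whose stroma, rather than whose LECs, was the intended site of deletion. Nothing in the labels stated that replicates came from separate animals, so p-values measure only the spread between these libraries.

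A cell that divides first licenses its replication origins with the MCM helicase, then copies its DNA during S phase with nucleotides supplied by ribonucleotide reductase and the thymidylate enzymes, and finally condenses and separates its chromosomes under Cdk1, the Aurora and Polo kinases and the anaphase-promoting complex. Replication genes are classically switched on by E2F factors, and mitotic genes later by a complex that binds the CHR element, usually near CCAAT boxes bound by NF-Y. LATS1 and LATS2 restrain YAP and TAZ, coactivators that bind TEAD factors and are known for their role in organ growth and proliferation.

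Promoter sequences show how the 2 groups of genes differ in ways that the selection by name did not use. RefSeq windows on GRCm38.p6 (the same assembly as mm10), running from 250 bases before to 50 bases after each start, matched 38 of the 46 genes. Both strands were searched. A CHR (written TTTGAA, or instead written TTCGAA) was present in 16 of 20 mitotic genes (80.0%), 3 of 17 replication genes (17.6%) and 19.2% of all 32851 windows. An E2F motif (written TTGGCGC, or instead written TTGCCGC, or instead written TTCGCGC, or instead written TTCCCGC) was present in 10 of 17 replication genes (58.8%), 3 of 20 mitotic genes (15%) and 9.57% of all windows. CCAAT was found in 85.0% of the mitotic and 58.8% of the replication windows, compared with 37.4% of all windows. The TEAD motif GGAATG was found in 10% of mitotic, 11.8% of replication and 14.7% of all windows. These are matches of letters and not bound sites. The 250 bases before the start are printed for the mitotic genes Ccnb2, Cdc20 and Top2a, for Mcm6, the replication gene that passed a test, and for Cenpf and Tk1, which with Ccnb2 and Cdc20 are the genes whose KO and WT LEC libraries did not overlap. All lie on the minus strand and are written 5′ to 3′, with CHR, E2F and CCAAT matches on either strand in capitals. E2F matches may overlap each other, as both runs of TTGGCGCGAA in Mcm6 do, since the reverse complement of TTCGCGC begins inside TTGGCGC. Cenpf has its CHR match in the 50 bases after the start, which are not printed, so only CCAAT is in capitals there, and none of these letters were found in the window of Tk1. A further CHR match of Ccnb2 and a further E2F match of Mcm6 also lie outside the printed bases. The positions are chr9:70421555-70421804 for Ccnb2, chr4:118437344-118437593 for Cdc20, chr11:99024190-99024439 for Top2a, chr1:128359706-128359955 for Mcm6, chr1:189688087-189688336 for Cenpf and chr11:117826015-117826264 for Tk1.
Ccnb2: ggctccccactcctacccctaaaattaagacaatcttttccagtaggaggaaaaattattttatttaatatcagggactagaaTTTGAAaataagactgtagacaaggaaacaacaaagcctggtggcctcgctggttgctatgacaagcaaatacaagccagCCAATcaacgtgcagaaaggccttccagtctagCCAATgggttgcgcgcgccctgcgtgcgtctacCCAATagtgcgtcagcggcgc
Cdc20: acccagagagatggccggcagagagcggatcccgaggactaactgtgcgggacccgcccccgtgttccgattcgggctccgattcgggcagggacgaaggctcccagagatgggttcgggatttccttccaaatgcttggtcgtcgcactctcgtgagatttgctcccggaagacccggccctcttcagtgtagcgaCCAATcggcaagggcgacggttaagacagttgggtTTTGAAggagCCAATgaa
Top2a: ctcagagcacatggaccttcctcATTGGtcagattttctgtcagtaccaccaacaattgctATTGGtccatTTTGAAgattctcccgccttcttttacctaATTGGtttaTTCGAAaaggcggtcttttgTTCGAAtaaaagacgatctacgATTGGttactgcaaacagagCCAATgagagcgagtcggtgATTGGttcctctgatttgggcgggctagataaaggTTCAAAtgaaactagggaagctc
Mcm6: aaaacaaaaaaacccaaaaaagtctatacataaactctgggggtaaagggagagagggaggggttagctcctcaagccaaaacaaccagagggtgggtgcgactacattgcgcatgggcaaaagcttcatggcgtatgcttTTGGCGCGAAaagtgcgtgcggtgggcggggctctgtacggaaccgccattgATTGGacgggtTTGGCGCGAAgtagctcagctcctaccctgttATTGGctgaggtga
Cenpf: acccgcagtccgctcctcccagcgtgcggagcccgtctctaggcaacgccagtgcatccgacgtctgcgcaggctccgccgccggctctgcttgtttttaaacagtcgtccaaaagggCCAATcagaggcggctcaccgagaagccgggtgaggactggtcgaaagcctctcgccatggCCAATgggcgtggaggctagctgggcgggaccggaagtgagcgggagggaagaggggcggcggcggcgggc
Tk1: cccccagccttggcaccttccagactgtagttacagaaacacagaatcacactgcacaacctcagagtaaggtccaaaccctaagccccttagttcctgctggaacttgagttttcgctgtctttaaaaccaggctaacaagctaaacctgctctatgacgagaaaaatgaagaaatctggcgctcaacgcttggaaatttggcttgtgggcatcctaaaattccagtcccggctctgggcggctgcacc

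The libraries held between 5361250 and 10549233 reads, so that 3 reads corresponded to 0.284 to 0.560 CPM (reads per 1000000 reads, scaled here with TMM factors over all 18 libraries). Between 7.02% and 24.4% of the reads fell on the ribosomal precursor Rn45s. The summed level of 8 LEC markers was 9209 to 15636 CPM in the LEC and 293 to 709 CPM in the IntSC libraries. The summed level of 7 stromal markers was 9627 to 15004 CPM in WT IntSC, 6710 to 11546 CPM in KO IntSC, 555 to 1932 CPM in WT LEC and 280 to 541 CPM in KO LEC. Lats1 was at 0 to 29.9 CPM in WT IntSC and 12.5 to 21.6 CPM in KO IntSC, and Lats2 at 40.8 to 112 and 78.4 to 133 CPM. Because 3′ end reads need not lie in a deleted exon, these values do not check the genotype. In bulk samples, fewer cycling cells and less RNA per cycling cell cannot be told apart.

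Of the 46 cell cycle genes, 26, 21 and 8 reached 20 CPM in KO LEC 1, 2 and 3. At most 15 did so in a WT LEC library and at most 9 in an IntSC library. The mitotic genes had their highest summed level in KO LEC 1 and KO LEC 2. The 24 mitotic genes summed to 1162, 761 and 244 CPM in the 3 KO LEC libraries and to 151, 364, 69.2 and 147 CPM in the 4 WT LEC libraries. The means were 722 ± 461 CPM (SD, n = 3) and 183 ± 126 CPM (SD, n = 4), and the groups overlapped because KO LEC 3 lay below WT LEC 2. Without KO LEC 1 the KO LEC mean was 502 CPM, without KO LEC 3 it was 961 CPM, and without WT LEC 2 the WT LEC mean was 123 CPM. In the IntSCs the same sum ranged from 99.6 to 221 CPM in WT (mean 142 ± 51.8, SD, n = 6) and from 107 to 133 CPM in KO (123 ± 10.5, SD, n = 5), so that KO IntSC lay within the range of WT IntSC.

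**Figure D1:**
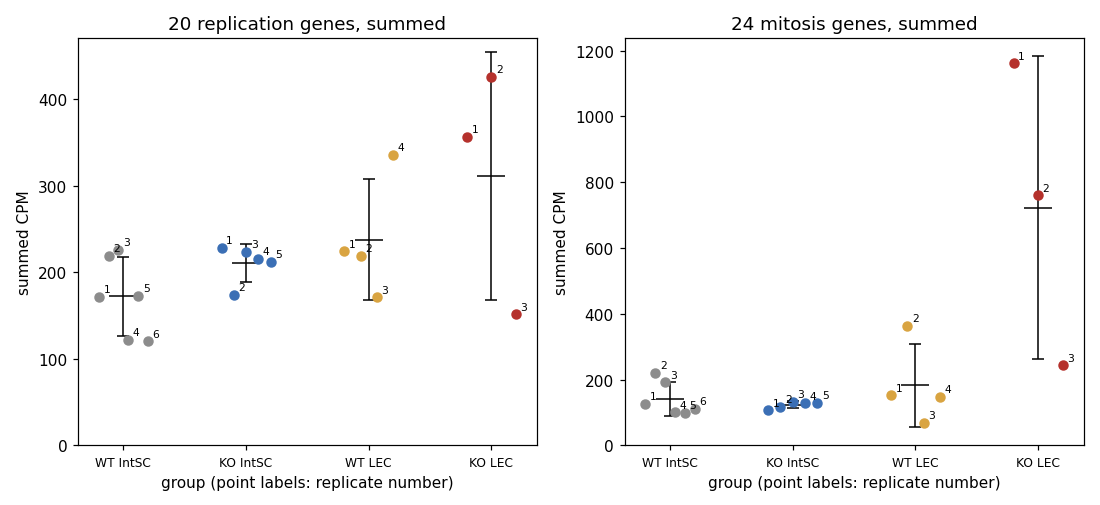
Summed CPM (y axis) of the 20 replication genes (left) and the 24 mitotic genes (right) in each library of the 4 groups (x axis); points are libraries labelled by replicate number, horizontal lines are means and bars are SD. KO LEC 1 and KO LEC 2 lie above all other libraries in both panels, whereas KO LEC 3 lies within the range of WT LEC for the mitotic genes and below it for the replication genes.

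The summed replication genes were also highest in KO LEC 1 and KO LEC 2. Their sum was 357, 426 and 151 CPM in KO LEC and 224, 219, 171 and 336 CPM in WT LEC. KO LEC 3 was the lowest of these 7 libraries, below every WT LEC library. In WT IntSC the sum ranged from 120 to 226 CPM (172 ± 45.5, SD, n = 6) and in KO IntSC from 174 to 228 CPM (211 ± 21.5, SD, n = 5), with overlap.

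The levels also varied from library to library within a group. Among the mitotic genes, 17, 12 and 4 reached 20 CPM in KO LEC 1, 2 and 3, compared with 2, 7, 1 and 3 in the WT LEC libraries and 0 to 3 in the IntSC libraries. Of the 24 mitotic genes, 12 had their highest level of all 18 libraries in KO LEC 1, 6 in KO LEC 2 and 1 in KO LEC 3. A gene could be well above the floor in 1 library and near 0 in another of the same group. Of the 40 cell cycle genes that reached 10 CPM in a KO LEC library, 19 (47.5%) had at most 1 read in another KO LEC library, compared with 27.9% of all 10008 genes that reached 10 CPM there. In WT LEC this share was 40.0% against 20.2% of all genes that reached 10 CPM, in WT IntSC 40.0% against 14.6%, and in KO IntSC 22.2% against 6.62%. The genes compared were not matched for level. After all libraries were thinned to 5361250 reads, the number of mitotic genes with a read stayed at 23, 19 and 17 in KO LEC. In WT LEC it was 13, 20, 18 and 17 before and 11, 20, 17 and 15 after thinning.

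**Figure D2:**
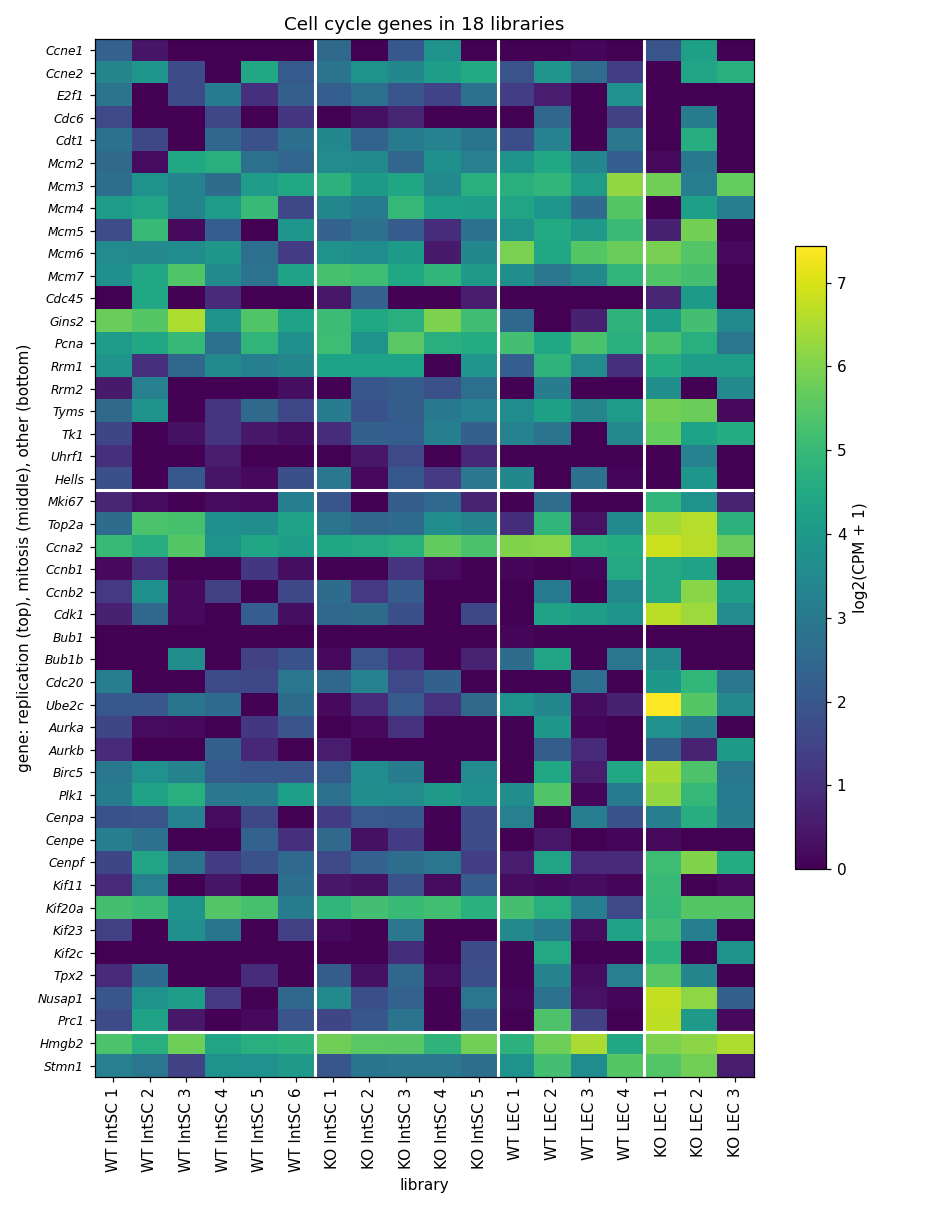
Level of each of the 46 genes (rows) in each of the 18 libraries (columns), as log2(CPM + 1) from dark (0) to yellow (highest); white lines separate groups and gene classes. The mitotic rows are brightest in KO LEC 1 and KO LEC 2, and single dark cells beside bright cells of the same group mark genes read in only some libraries.

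To ask how stromal deletion of Lats1/2 was reflected in the cell cycle genes of neighbouring LECs, KO LECs were compared with WT LECs. The KO LEC mean was above the WT LEC mean for 21 of the 24 mitotic genes (87.5%) and 14 of the 20 replication genes (70.0%), compared with 44.6% of the 15057 genes with a read in these libraries. After the filter on low counts, 39 of the 46 genes were tested among 10639 genes. None passed an adjusted p of 0.05 by edgeR's quasi-likelihood test with Benjamini-Hochberg adjustment, where 0.0658% of all genes did. At an unadjusted p under 0.05 there were 3, all of them mitotic and higher in KO (Nusap1, Ube2c and Top2a), and 7.87% of all genes. With DESeq2 1 of the 46 passed (Nusap1, adjusted p = 0.00700), and with limma-voom 0 did. The median log2 fold change was 2.02 for the 21 mitotic and 0.74 for the 16 replication genes tested, and −0.03 for all genes tested. Without KO LEC 1 the mitotic median was 1.30, and without KO LEC 2 the replication median was −0.42. The 3 mitotic genes not tested were Bub1, Cenpe and Kif11, and the 4 replication genes not tested were Ccne1, E2f1, Cdc45 and Uhrf1.

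Among the genes of spindle assembly and chromosome structure, Nusap1 had the largest fold change of the 39. Nusap1, which bundles spindle microtubules, was at 107, 71.2 and 3.89 CPM in KO LEC and at 0.0951, 5.78, 0.281 and 0.0994 CPM in WT LEC. KO LEC 3 lay below WT LEC 2, so the groups overlapped, and the log2 fold change was 5.28 ± 1.57 (SE, adjusted p = 0.361, edgeR). Without WT LEC 2 it was 8.47 (adjusted p = 0.131). Top2a, the topoisomerase that untangles sister chromatids, was at 84.1, 96.3 and 26.3 CPM in KO LEC and at 0.951, 28.5, 0.281 and 10.7 CPM in WT LEC. Again only WT LEC 2 exceeded the lowest KO library, and the log2 fold change was 2.76 ± 1.17 (SE, adjusted p = 0.549, edgeR). Cenpf, a kinetochore protein, was at 33.6, 64.7 and 22.7 CPM in KO LEC and at 0.475, 19.1, 0.842 and 0.895 CPM in WT LEC. Here the groups did not overlap, with a log2 fold change of 2.91 ± 1.42 (SE, adjusted p = 0.677, edgeR) that became 5.76 without WT LEC 2. Prc1, which organises the spindle midzone, was at 104, 15.2 and 0.130 CPM in KO LEC and at 40.1 CPM in WT LEC 2.

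For the mitotic cyclins and their kinase, the order of the libraries differed from gene to gene. Cdk1, the kinase that drives entry into mitosis, was at 101, 80.2 and 10.9 CPM in KO LEC and at 0, 18.5, 16.9 and 13.4 CPM in WT LEC. KO LEC 3 lay below 3 of the 4 WT libraries, and the log2 fold change was 2.40 ± 1.21 (SE, adjusted p = 0.708, edgeR). Ccnb2, a B-type cyclin that activates Cdk1, was at 21.2, 68.2 and 17.0 CPM in KO LEC and at 0, 7.5, 0 and 10.3 CPM in WT LEC. All KO libraries lay above all WT libraries, with a log2 fold change of 2.99 ± 1.78 (SE, adjusted p = 0.835, edgeR). Ccnb1, the other mitotic B-type cyclin measured, was at 21.4, 18.5 and 0 CPM in KO LEC and reached 21.4 CPM in WT LEC 4, while the other 3 WT LEC libraries were at or below 0.0951 CPM. Ccna2, the cyclin of S phase and early mitosis, was at 115, 97.8 and 51.1 CPM in KO LEC and 64.5, 66.4, 25.1 and 23.4 CPM in WT LEC, with a log2 fold change of 0.98 ± 0.54 (SE, adjusted p = 0.776, edgeR).

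The genes that end mitosis included the highest single value. Ube2c, the ubiquitin-conjugating enzyme of the anaphase-promoting complex, was at 172, 43.1 and 10.4 CPM in KO LEC and at 12.9, 9.72, 0.187 and 0.596 CPM in WT LEC. KO LEC 3 lay just below WT LEC 1, and the log2 fold change of 3.68 ± 1.26 (SE, adjusted p = 0.446, edgeR) became 2.19 without KO LEC 1. Cdc20, the activator of the same complex, was at 14.5, 29.4 and 6.74 CPM in KO LEC and at 0, 0, 5.52 and 0 CPM in WT LEC. These groups did not overlap, and the log2 fold change was 3.61 ± 2.40 (SE, adjusted p = 0.897, edgeR). Birc5 (survivin, of the chromosomal passenger complex) was at 86.9, 39.7 and 6.87 CPM in KO LEC and at 0, 20.4, 0.468 and 20.5 CPM in WT LEC, with overlap. Mki67, which encodes the proliferation antigen Ki-67, was at 27.9, 13.1 and 0.648 CPM in KO LEC and was read in only 1 WT LEC library, at 5.29 CPM. Its log2 fold change was 3.38 ± 2.53 (SE, adjusted p = 0.962, edgeR). The checkpoint kinase gene Bub1 had a read in 1 of the 18 libraries.

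**Figure D3:**
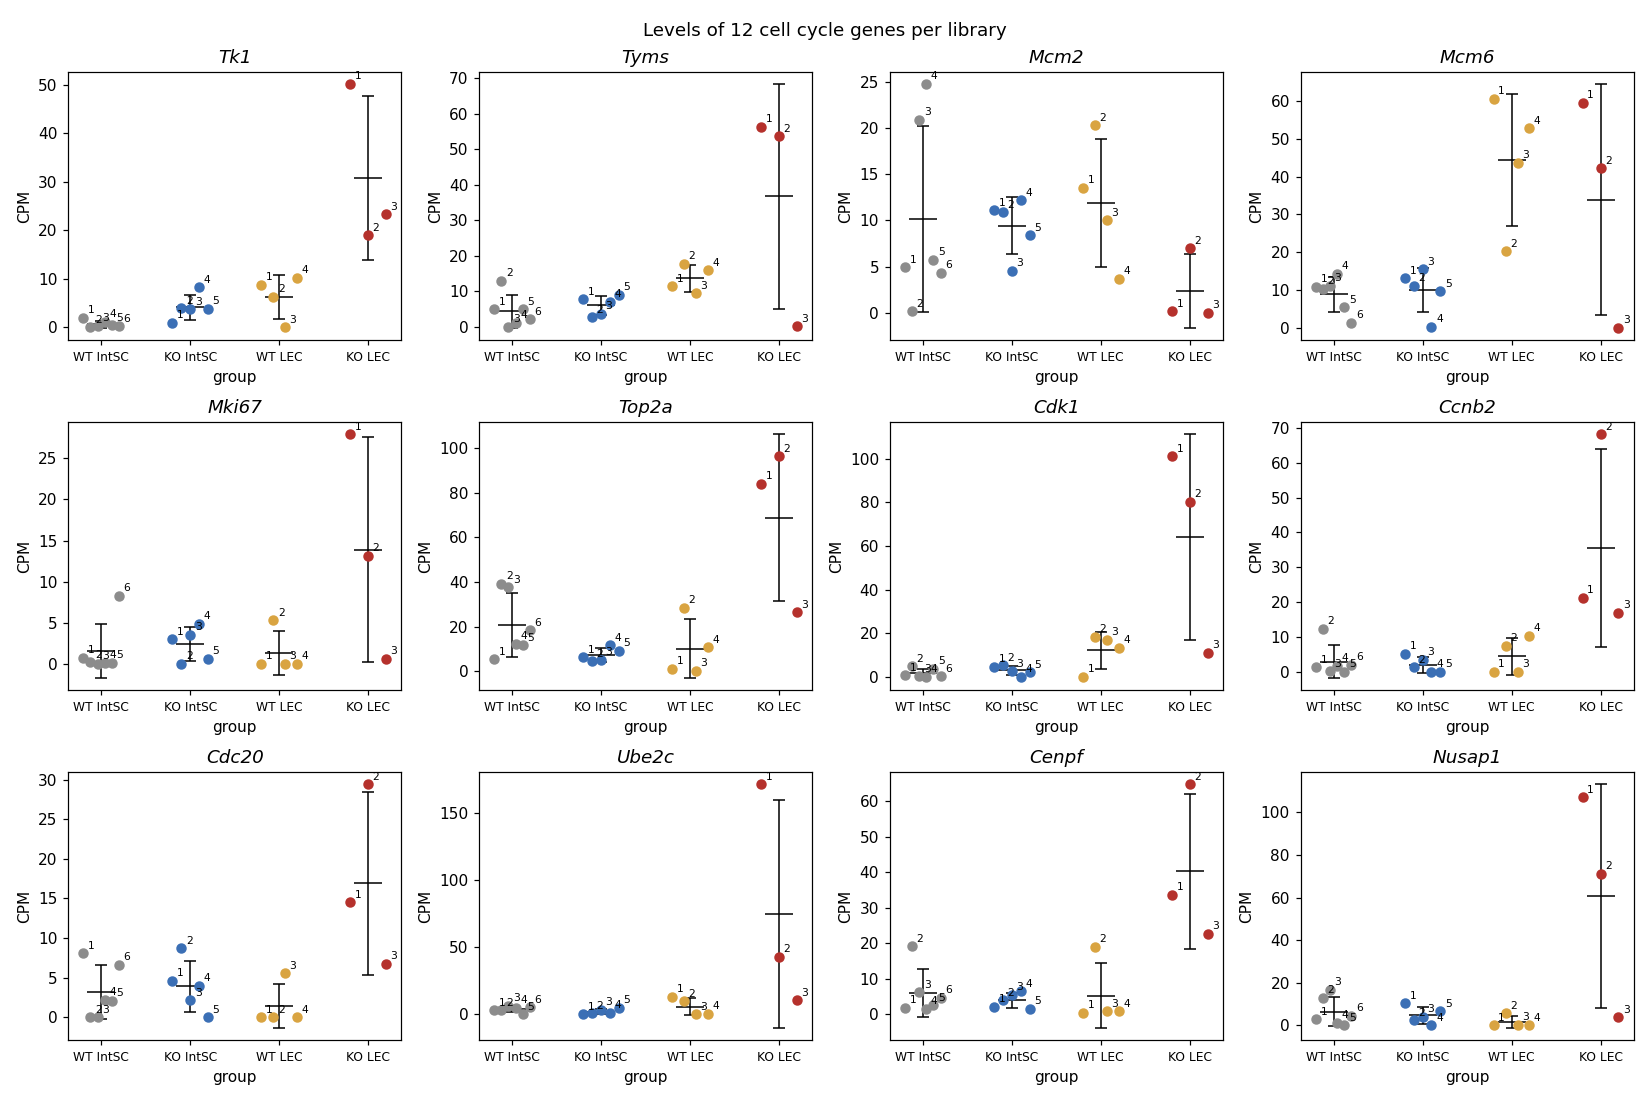
CPM (y axis, linear, own scale in each panel) of 4 replication genes (top row) and 8 mitotic genes (middle and bottom rows) in each library of the 4 groups (x axis); points are libraries labelled by replicate number, lines are means and bars are SD. In most mitotic panels KO LEC 1 and 2 stand above all other libraries, while Mcm6 separates WT LECs from WT IntSCs.

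The replication genes tested had log2 fold changes above 0 for 11 of 16 and below 0 for 5, KO against WT LECs. Tk1, the thymidine kinase of S phase, was at 50.1, 19.0 and 23.3 CPM in KO LEC and at 8.75, 6.27, 0 and 10.2 CPM in WT LEC. It was the only replication gene whose groups did not overlap, with a log2 fold change of 2.30 ± 1.52 (SE, adjusted p = 0.893, edgeR). Tyms, which makes thymidylate, was at 56.3, 53.5 and 0.130 CPM in KO LEC and at 11.3, 17.7, 9.35 and 15.9 CPM in WT LEC, so that the KO libraries lay on both sides of the WT libraries. Together with Ccnb2, Cdc20 and Cenpf, Tk1 was 1 of 4 cell cycle genes for which every KO LEC library exceeded every WT LEC library, a pattern shown by 4.01% of all genes tested. The opposite order, shown by 5.8% of all genes, was found for 0 of the 39.

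The MCM helicase subunits did not move as a group. Mcm2 was at 0.142, 6.99 and 0 CPM in KO LEC and at 13.5, 20.3, 10 and 3.68 CPM in WT LEC, a log2 fold change of −2.32 ± 2.21 (SE, adjusted p = 0.9999, edgeR). Mcm6 was at 59.4, 42.2 and 0.130 CPM in KO LEC and at 60.5, 20.3, 43.6 and 52.8 CPM in WT LEC, and Mcm7 at 41.9, 36.8 and 0 CPM in KO LEC against 6.64 to 27.9 CPM in WT LEC. KO LEC 3 was thus at or near 0 for Mcm2, Mcm6 and Mcm7 while Mcm3 stood at 50.4 CPM in the same library. Pcna, the sliding clamp of the replication fork, was at 37.8, 25.0 and 6.48 CPM in KO LEC and at 36.1, 20.8, 38.7 and 24.6 CPM in WT LEC. Its log2 fold change was −0.37 ± 0.88 (SE, adjusted p = 0.9999, edgeR), and like that of Mcm6 it turned positive without KO LEC 3 (0.08 for Pcna and 0.21 for Mcm6). Ccne1, the cyclin that starts S phase, was at 2.85, 17.8 and 0 CPM in KO LEC and had 1 read in all 4 WT LEC libraries together. Rrm2, a subunit of ribonucleotide reductase, was at 11.8, 0 and 10.6 CPM in KO LEC and read only in WT LEC 2, at 7.63 CPM. E2f1, the transcription factor of S-phase entry, had no read in any KO LEC library and reached 12.6 CPM in WT LEC 4. Hmgb2 was at 61.3, 69.9 and 91.5 CPM in KO LEC and at 26.6, 54.7, 88.8 and 20.5 CPM in WT LEC, and Stmn1 at 42.6, 56.7 and 0.518 CPM against 13.2, 36.0, 11.1 and 43.8 CPM, both with overlap.

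Sums of markers of other cells were also compared, and edgeR called 0 of the markers tested between these groups. The 8 epithelial markers summed to 45.3, 104 and 180 CPM in KO LEC 1, 2 and 3, and to 4.11 to 47.7 CPM in WT LEC. The 6 Paneth cell markers summed to 213, 41.1 and 379 CPM in KO LEC 1, 2 and 3 and to 0.596 to 21.1 CPM in WT LEC. The 6 crypt stem cell markers summed to 0.219 to 21.1 CPM in KO LEC and 9.10 to 53.1 CPM in WT LEC, with Olfm4 at 0 in all 18 libraries. The 9 leukocyte markers summed to 1.75 to 10.1 CPM in KO LEC and 11.5 to 56.0 CPM in WT LEC. Every KO LEC library exceeded every WT LEC library in the Paneth sum. The part of these other cells in the cell cycle values was not tested.

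In the IntSCs, the intended site of the deletion, no cell cycle gene passed the test. Of the 33 genes tested among 12421, edgeR, DESeq2 and limma-voom each called 0 at an adjusted p of 0.05, where edgeR called 1.47% of all genes. At an unadjusted p under 0.05 there was 1 (Top2a, lower in KO), and 9.81% of all genes. The KO mean was above the WT mean for 15 of the 20 replication genes (75.0%) and 8 of the 24 mitotic genes (33.3%), compared with 53.6% of the 18119 genes with a read. The median log2 fold change was 0.56 for the 16 replication genes tested and −0.46 for the 15 mitotic genes tested, against 0.00 for all genes. The mitotic median was −0.06 without WT IntSC 2 and −0.02 without WT IntSC 3. For 0 of the 33 did the groups separate, whereas every KO library exceeded every WT library for 1.63% of all genes and lay below it for 1.18%. The Paneth cell markers summed to 87.8 to 178 CPM in KO IntSC and 0.674 to 36.8 CPM in WT IntSC. Of the 4 tested, 2 were called higher in KO (smallest adjusted p = 0.000150, edgeR). The crypt stem cell markers summed to 232 to 318 CPM in KO and 131 to 197 CPM in WT, also without overlap. Of the 3 tested, 2 had log2 fold changes above 0 and 1 below (−1.51). Only Smoc2 was called, higher in KO (0.90 ± 0.20, adjusted p = 0.0256, edgeR). The epithelial markers summed to 48.4 to 162 CPM in KO and 5.35 to 156 CPM in WT, with Krt19 called higher in KO, and the 7 blood endothelial markers to 1124 to 1622 CPM and 1372 to 2826 CPM, with Cd34 called lower and Ly6c1 higher. The mean crypt stem cell sum (264 CPM in KO, 166 CPM in WT) was above the mean epithelial sum (94.8 CPM in KO, 41.2 CPM in WT). Which cells the reads of these markers came from was not tested, nor was their part in the cell cycle values.

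Top2a was at 6.27, 4.43, 5.0, 11.6 and 9.02 CPM in the KO IntSC libraries and between 5.23 and 39.2 CPM, with a median of 15.4 CPM, in WT IntSC. The KO libraries lay in the lower part of the WT range or just below it, with a log2 fold change of −1.52 ± 0.56 (SE, adjusted p = 0.273, edgeR). Tk1 was at 0.914, 3.89, 3.69, 8.22 and 3.87 CPM in KO IntSC and between 0 and 1.94 CPM (median 0.329) in WT IntSC. Only KO IntSC 1 lay within the WT range, and the log2 fold change was 2.59 ± 1.26 (SE, adjusted p = 0.516, edgeR). Of the helicase subunits, Mcm3 was at 10.5 to 26.5 CPM in KO and 5.18 to 20.7 CPM in WT (0.76 ± 0.49, adjusted p = 0.708, edgeR) and Mcm7 at 15.2 to 37.5 CPM in KO and 6.10 to 41.4 CPM in WT (0.57 ± 0.44, adjusted p = 0.807, edgeR). Pcna was at 12.7 to 45.3 CPM in KO and 5.52 to 30.4 CPM in WT (0.56 ± 0.43, adjusted p = 0.801, edgeR). Mki67 did not exceed 4.87 CPM in KO IntSC and exceeded 1 CPM in only 1 WT IntSC library, at 8.28 CPM. Cdk1 was at 0 to 5.23 CPM in KO and 0 to 4.75 CPM in WT, and Ccnb1 did not exceed 1.30 CPM in any IntSC library. Kif20a, a kinesin of cytokinesis, was at 25.1 to 36.1 CPM in KO IntSC and 7.66 to 42.3 CPM in WT IntSC.

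**Figure D4:**
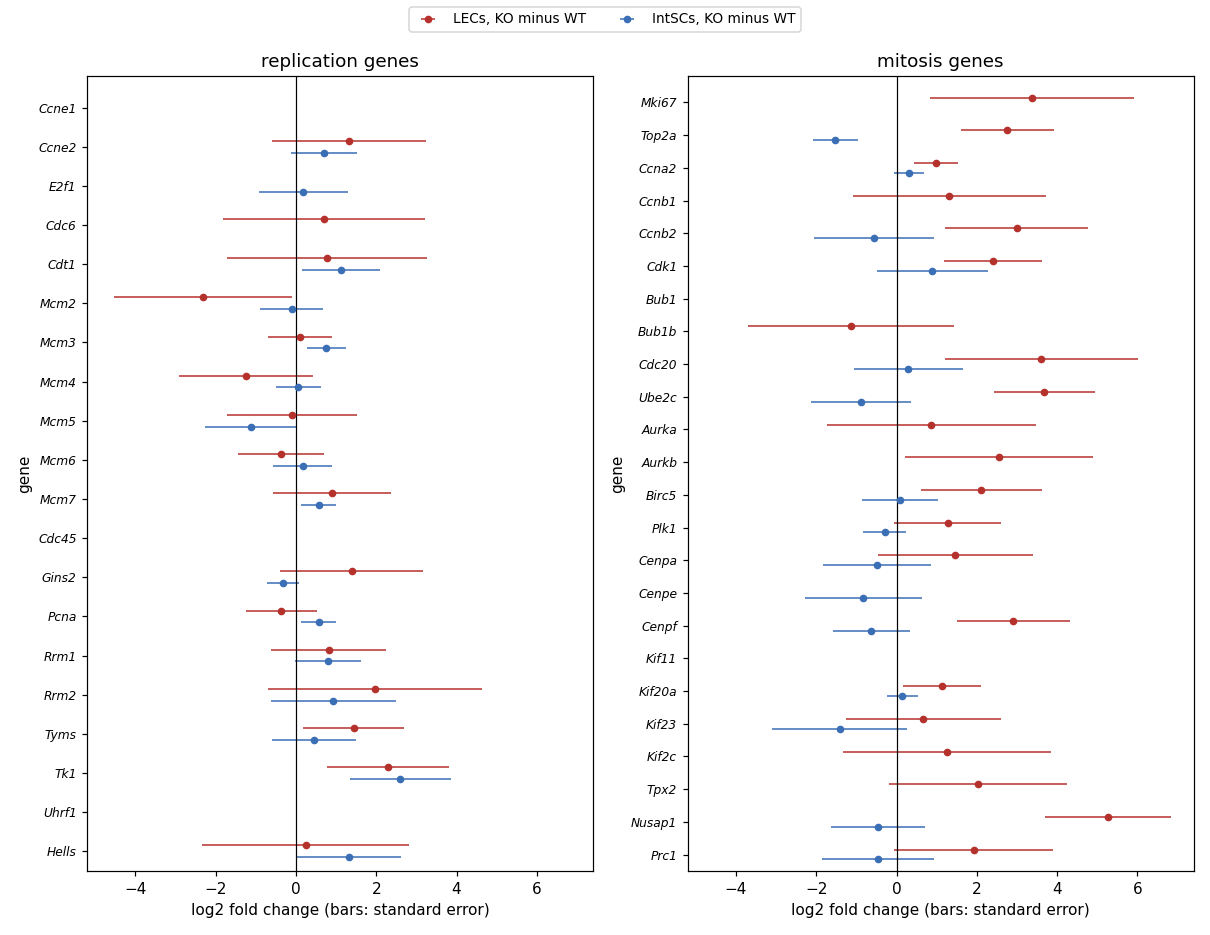
Log2 fold change of KO against WT (x axis) for each of the 20 replication genes (left) and 24 mitotic genes (right) in LECs (red) and IntSCs (blue); points are edgeR estimates, bars are standard errors, and a missing point is a gene left out by the filter on low counts. Most mitotic genes lie right of 0 in LECs with wide bars, led by Nusap1 at 5.28, and those of the IntSCs lie on both sides.

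Whether the genotype difference itself depended on the cell type was tested by an interaction term, defined as the KO minus WT difference in IntSCs minus that in LECs. Of 44 genes tested among 14015, 0 passed an adjusted p of 0.05 by edgeR, where 1.7% of all genes did. At an unadjusted p under 0.05 there were 7, against 15.8% of all genes. Of these 7, 6 were more positive in LECs and 1 in IntSCs, against 554 and 1663 of all genes tested. The smallest p was that of Top2a at −4.22 ± 1.31 (SE, adjusted p = 0.100, edgeR), followed among the mitotic genes by Nusap1 at −5.68 ± 2.07 (adjusted p = 0.166) and Ube2c at −4.49 ± 1.74 (adjusted p = 0.194). DESeq2 called Top2a (adjusted p = 0.0121) and Nusap1 (0.0385) more positive in LECs and E2f1 (0.0310) and Kif2c (0.0320) more positive in IntSCs, while limma-voom called 0. Without WT LEC 2, edgeR called Top2a (adjusted p = 0.0334), Cenpf (0.0350) and Nusap1 (0.0414). The E2f1 and Kif2c estimates rest on groups without a single read (KO LEC for E2f1, WT IntSC for Kif2c) and give no size of the difference. The estimate for Kif11, a spindle motor read above 1 CPM in LECs only in KO LEC 1 (31.2 CPM), changed from −6.81 to 0.24 without that library.

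Between the WT cell types, 1 cell cycle gene passed the test. Mcm6 was at 60.5, 20.3, 43.6 and 52.8 CPM in WT LEC and between 1.45 and 14.4 CPM, with a median of 10.6 CPM, in WT IntSC. All LEC libraries lay above all IntSC libraries, and Mcm6 rose by a log2 fold change of 2.30 ± 0.59 (SE, adjusted p = 0.0110, edgeR), where 10.3% of the 12203 genes tested were called higher in LECs (22.6% in either direction) and 9.76% separated in this direction. The call was lost when all 4 groups entered the fit (adjusted p = 0.0732). At an unadjusted p under 0.05 there were 3 genes (Mcm6, Mcm3 and Gins2), and 32.5% of all genes. For 0 of the 33 did every LEC library lie below every IntSC library, as 11.4% of all genes did. Of the other 32 genes tested, Mcm3 was at 24.8, 28.4, 16.1 and 74.3 CPM in WT LEC against 5.18 to 20.7 CPM in WT IntSC (1.63 ± 0.60, adjusted p = 0.0635, edgeR). Gins2, of the GINS complex that works with the MCM helicase, was at 4.75, 0, 0.561 and 27.4 CPM in WT LEC against 13.4 to 91.3 CPM in WT IntSC (−2.41 ± 1.12, adjusted p = 0.152, edgeR), and without WT LEC 4 it became −4.59 (adjusted p = 0.0117). Cdk1 had a log2 fold change of 2.95 ± 1.57 (adjusted p = 0.212, edgeR), with WT LEC 1 at 0 and the other 3 WT LEC libraries at 13.4 to 18.5 CPM. Stmn1 was at 11.1 to 43.8 CPM in WT LEC and 1.75 to 15.3 CPM in WT IntSC (1.42 ± 0.70, adjusted p = 0.176, edgeR). Of the 33 genes tested, 25 had log2 fold changes above 0 and 8 below. Nusap1 and Top2a lay below 0, at −5.25 to −1.50 and −2.40 to −0.64 when 1 library was left out. Tk1 and Ccna2 lay above 0, at 2.87 to 3.62 and 0.58 to 1.09 when 1 library was left out. None of these was called.

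The genes that set the pace of G1, the phase before replication, were described alongside the 46, and 2 of them passed the test in IntSCs. Ccnd1, the D-type cyclin that activates Cdk4 and Cdk6 in G1, was at 42.3, 79.8, 91.0, 185 and 41.1 CPM in KO IntSC and between 188 and 480 CPM, with a median of 337 CPM, in WT IntSC. The groups did not overlap, and Ccnd1 fell by 1.97 on the log2 scale (SE 0.36, adjusted p = 0.00859, edgeR). In LECs it was at 480, 788 and 258 CPM in KO and at 395 to 784 CPM in WT, a log2 fold change of −0.15 ± 0.34 (adjusted p = 0.9999, edgeR), and the interaction was −1.75 ± 0.56 (adjusted p = 0.119, edgeR), which DESeq2 called and limma-voom did not. Cdkn1c, which encodes the cyclin-dependent kinase inhibitor p57, was at 39.3, 58.2, 44.0, 27.6 and 51.6 CPM in KO IntSC and between 8.69 and 24.5 CPM (median 12.3) in WT IntSC. These groups did not overlap either, and Cdkn1c rose by a log2 fold change of 1.63 ± 0.35 (SE, adjusted p = 0.0196, edgeR). The adjusted p was 0.0779 without KO IntSC 2, 0.0555 without KO IntSC 3, 0.0665 without KO IntSC 5 and 0.284 with all 4 groups in the fit.

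The other G1 genes named were not called between genotypes by edgeR. Cdkn1a, which encodes the inhibitor p21, was at 125, 68.4 and 281 CPM in KO LEC and 40.8 to 76.0 CPM in WT LEC (1.57 ± 0.47, adjusted p = 0.374, edgeR), and at 42.8 to 97.3 CPM in KO IntSC and 30.8 to 79.4 CPM in WT IntSC (0.67 ± 0.28, adjusted p = 0.386, edgeR). Ccnd2 was at 653, 800 and 309 CPM in KO LEC and 211 to 354 CPM in WT LEC (0.91 ± 0.32, adjusted p = 0.461, edgeR). Cdkn1b, which encodes the inhibitor p27, was at 28.3, 84.4 and 70.6 CPM in KO LEC and 66.1 to 159 CPM in WT LEC (−0.88 ± 0.50, adjusted p = 0.784, edgeR). Ccnd3 differed between the WT cell types, where it fell in LECs by 0.98 on the log2 scale (SE 0.29, adjusted p = 0.0218, edgeR), with an adjusted p of 0.0576 without WT LEC 3. Myc, a transcription factor of growth, was below 8 CPM in every library except KO LEC 1, where it was at 27.8 CPM.

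**Figure D5:**
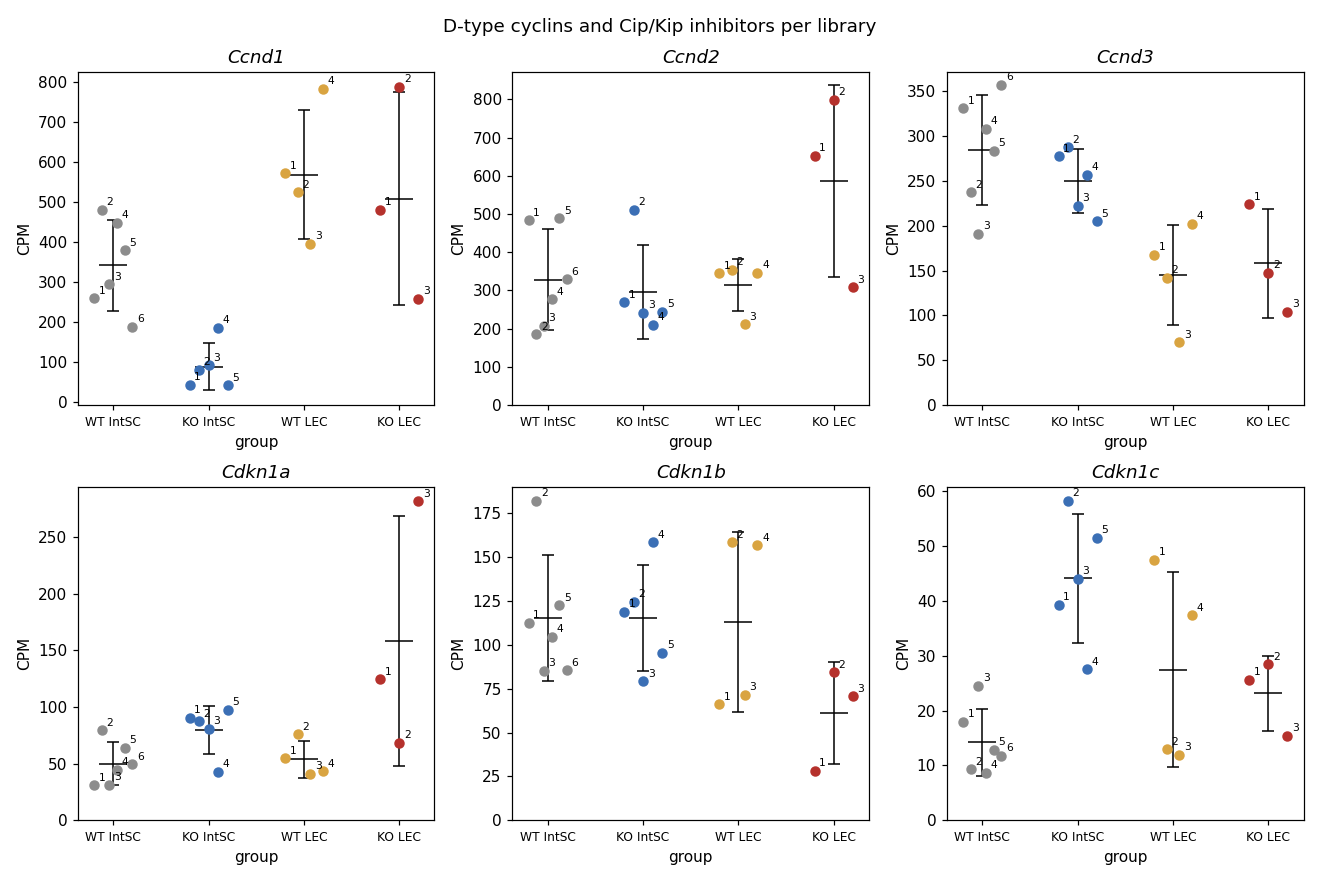
CPM (y axis, linear, own scale in each panel) of the D-type cyclins Ccnd1, Ccnd2 and Ccnd3 and the inhibitor genes Cdkn1a, Cdkn1b and Cdkn1c in each library of the 4 groups (x axis); points are libraries labelled by replicate number, lines are means and bars are SD. The KO IntSC libraries lie below WT IntSC for Ccnd1 and above for Cdkn1c, without overlap.

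The rest of the pathway was followed in 4 lists, which held 11 further genes of G1 entry, 16 brakes on the cycle, 31 replication genes and 40 mitotic genes. In LECs 7, 12, 20 and 25 of these were tested and 0 passed by edgeR, where 0.0658% of all genes did, with 1, 1, 1 and 5 at an unadjusted p under 0.05, where 7.87% of all genes were. Of the 5 mitotic genes, 3 were higher and 2 lower in KO. DESeq2 called Cdca3, a trigger of mitotic entry, higher and the mitotic transcription factor Foxm1 lower in KO LECs, and limma-voom called 0. Foxm1 was at 6.56, 26.6, 6.83 and 0 CPM in WT LEC and had no read in any KO LEC library. Its estimate therefore gives no size of the difference. Cdca3 was at 61.0, 13.4 and 13.5 CPM in KO LEC and did not exceed 1.60 CPM in WT LEC, and Spc24, a kinetochore protein, was at 13.5, 69.8 and 41.3 CPM in KO LEC and did not exceed 10.8 CPM in WT LEC. Cdca3, Foxm1 and Spc24 were singled out after their values were seen. The KO LEC mean exceeded the WT LEC mean for 30 of the 40 further mitotic genes (75.0%) and 14 of the 31 further replication genes (45.2%), compared with 44.6% of all genes with a read. In IntSCs 8, 15, 24 and 18 genes of the 4 lists were tested, and Ccnd1 and Cdkn1c were the only genes called by edgeR, which called 1.47% of all genes.

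Between the WT cell types, 7, 14, 21 and 18 genes of the 4 lists were tested and 1, 2, 2 and 2 were called by edgeR, where 22.6% of all genes were. Of these, 4 rose in LECs and 2 fell besides Ccnd3. Tubb5, a tubulin, was at 565, 400, 605 and 655 CPM in WT LEC and between 122 and 224 CPM in WT IntSC, without overlap, and rose by 1.75 ± 0.22 (SE, adjusted p = 2.38e-05, edgeR). Dut, which removes dUTP from the nucleotide pool, was at 67.2, 72.8, 114 and 118 CPM against 16.8 to 37.7 CPM and rose by 1.86 ± 0.34 (SE, adjusted p = 0.000884, edgeR). Pola2, a subunit of DNA polymerase alpha (adjusted p = 0.0269), and Racgap1, of the cytokinesis machinery (adjusted p = 0.0453), also rose by edgeR. The brakes Btg1 (adjusted p = 0.0491) and Gas1 (adjusted p = 0.0493) fell. Leaving out single libraries ended the calls of Pola2, Racgap1, Btg1 and Gas1, with adjusted p up to 0.142, 0.139, 0.118 and 0.102.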

How the data were processed

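RNA of 18 FACS-sorted mouse cell samples was extracted with Trizol, and libraries were prepared with the Lexogen QuantSeq 3′ kit and sequenced on a NextSeq 500. The authors deposited 1 table per library with raw, unnormalised read counts for each gene symbol. The submitters' processing notes name Bowtie2, edgeR and mm10, while the methods of the study name TopHat and Cufflinks, and the counting program is not given in the sources used here. Each table held 23282 rows and 23238 symbols, and the 35 symbols on more than 1 row were summed. Groups and replicate numbers were taken from the sample titles.

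Counts were tested with edgeR 4.0.16 (R 4.3.3) using the robust quasi-likelihood fit with TMM factors, the filterByExpr filter given the groups, and Benjamini-Hochberg adjustment over all genes tested, at a threshold of 0.05. Only the groups compared entered a fit, except for the interaction. A gene's log2 fold change is given with the SE derived from its F statistic. Levels are CPM with TMM factors from all 18 libraries. Alternatives were DESeq2 1.42.0, limma 3.58.1 (voom), upper-quartile or RLE factors, dropping the filter, a mean count of at least 10, a replicate block, removal of Rn45s, all 4 groups in 1 fit, and leaving out each library. The scripts were tested on simulated counts with 200 changed genes.

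The members and lists were chosen with earlier results of these data known. Genes named were 14 fixed members, 7 fixed G1 genes, every member past the threshold, the 4 replication and 4 mitotic members with the smallest p in each comparison, and pathway genes past the threshold, and other members are named with values only as illustrations chosen after those were seen. Some genes selected by this rule are given without their main estimate. Among them are Gins2 in LECs, Ccna2, Kif23 and Ube2c in IntSCs, and Cdc45, Ccne1 and Mcm2 for the interaction. Depth ranged from 5361250 to 10549233 reads, and a floor of 3 reads covers counting error only, since PCR copies were not marked. Promoter windows came from RefSeq (GRCm38.p6), where Ccne2, Ccna2, Aurkb, Stmn1, Tpx2, Gins2, Mcm4 and Kif20a were not matched. Where a gene had more than 1 window, it counted as holding a motif if any window did.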

Additional observations from a re-analysis of the deposited data

Results flagged for a closer look

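The genes named by rule and the summed lists were examined in the 3 groups of 4 to 6 libraries for a single library far from the rest, by Dixon's ratio of the gap to the range. Of 119 groups of values, 18 had such a library. Chance alone gives about 1 in 20 (5.95 groups) only for normally distributed values. Genes at or near 0 in all but 1 library of a group pass the ratio readily. The 18 can therefore not be set against that number. WT LEC 2 was set apart 4 times, at 5.29 CPM for Mki67, 19.1 CPM for Cenpf, 5.78 CPM for Nusap1 and 7.63 CPM for Rrm2. Its mitotic sum of 364 CPM was also the highest of the WT LECs. WT LEC 3 was set apart 3 times, high for Btg1 (123 CPM, next 77.0 CPM), low for Ccnd2 (211 CPM, next 345 CPM), and for Ccne1 by a single read (0.0935 CPM). WT LEC 4 was high for Ccnb1 (21.4 CPM) and E2f1 (12.6 CPM).

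Among the IntSCs, WT IntSC 2 was high for Cdc45 (20.9 CPM), Cenpf (19.2 CPM) and Rrm2 (8.48 CPM), WT IntSC 1 for Ccne1 (4.03 CPM) and WT IntSC 6 for Mki67 (8.28 CPM). KO IntSC 2 was high for Ccnd2 (511 CPM) and Cdc45 (4.03 CPM), and KO IntSC 3 for Ccnb1 (1.19 CPM) and Kif23 (6.66 CPM). The 3 KO LEC libraries were too few to be examined in this way. The causes were not tested.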

How the results depend on the processing

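No cell cycle gene was called in either genotype comparison by any alternative except Nusap1 in LECs with DESeq2. In the LEC comparison, 13 of the 16 replication and 16 of the 21 mitotic genes tested had at most 1 read in at least 1 library. The number of genes called in LECs (7) was 309 with DESeq2, 18 with limma-voom, 32 without the filter, 20 with a mean count of at least 10, 3 with the replicate block, 538 with all 4 groups, and 0 (without WT LEC 3) to 16 (without KO LEC 2) when 1 library was left out. Members called higher in LECs became 1 with DESeq2. In IntSCs the 183 genes became 376 with DESeq2, 27 with all 4 groups, and 99 (without KO IntSC 3) to 186 without 1 library. Between WT cell types the 2763 genes became 1596 with the block, members called higher (1) became 2 with DESeq2 (Mcm6, Mcm3), 2 with limma-voom (Mcm6, Mcm5), 0 with the block and 1 to 2 without 1 library, and members called lower (0) became 1 (Gins2) with DESeq2 or limma-voom and 0 to 1 without 1 library. With all 4 groups only Kif2c was called there. For the interaction the 238 genes became 1023 with DESeq2, 140 with limma-voom, 16 with the block, and 161 to 461 (without KO LEC 2) without 1 library, members higher (0) became 2 with DESeq2, and members lower (0) became 2 with DESeq2 and 0 to 3 without 1 library. Without Rn45s the KO IntSC sums were 247 CPM (replication) and 144 CPM (mitosis).

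Some uncalled differences changed sign. In LECs Tyms was −0.52 and Stmn1 −0.77 with limma-voom, and with the block Stmn1 was −0.22 and Cdkn1c 0.22. Without 1 library the LEC values ranged from −1.06 to 0.21 for Mcm6, −0.92 to 0.078 for Pcna, −0.25 to 0.94 for Stmn1, −0.60 to 0.17 for Ccnd1, −0.20 to 0.37 for Ccnd3 and −0.50 to 0.17 for Cdkn1c. In IntSCs Birc5 was −0.75, Mcm2 0.68 and Mcm6 −0.12 with limma-voom, and −0.64, 0.45 and −0.25 with the block. Without 1 library the IntSC values ranged from −0.18 to 0.41 for Birc5, −0.37 to 0.37 for Mcm2, −0.052 to 0.47 for Mcm6 and −0.14 to 0.17 for Cdkn1b, and the interaction of Kif11 from −7.48 to 0.24. The causes were not tested. Same-numbered libraries of 2 groups had correlations from −0.0686 to 0.0570, none over 0.1, so the numbers were not taken to pair the libraries. Between the WT cell types all 4 were positive (0.0216 to 0.0349) and 7 of 8 libraries correlated best with their own number, a hint from the data and not from the design, compared with 2 of 6 in the LEC and 2 of 10 in the IntSC comparison. The replicate block ended the call of Mcm6 (1.82, adjusted p = 0.136) and, outside the 46 genes, those of Cdkn1c (1.65, adjusted p = 0.0715), Pola2, Racgap1, Btg1 and Gas1. Where an arm was left with 2 libraries, their spread was estimated together with the other group.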
